A study of Mus musculus with 2 samples.

Results

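Transcripts of 10 genes for matrix glycoproteins and galectins that myeloid cells make were followed: Fn1, Tgfbi, Vcan, Thbs1, Spp1, Emilin2, Lgals1, Lgals3, Ecm1 and Sparc. They were chosen by symbol, among probe sets whose annotation names exactly 1 gene, with the values of these arrays already known. Of the 10 genes, 9 were measured, out of 19935 genes in all, each of the 9 by 1 probe set. No listed probe set named Spp1, which encodes osteopontin, so it is not analysed here. The cells were bone marrow cells of 6-week-old outbred ddY mice, taken as the mononuclear layer of a density gradient. RANK, which binds the osteoclast differentiation factor RANKL, and c-Fms, which binds the growth factor M-CSF, were stained, and cells were sorted by flow cytometry as either RANKhigh c-Fmslow or RANKlow c-Fmshigh. No treatment or gene deletion is labelled in either, and the labels give neither sex nor the number of mice behind a population. The populations are called RANKhigh and c-Fmshigh cells here. Each was measured on 1 array, so there is no replicate error, no difference has a replicate check, and no test or p-value is given.

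Matrix glycoproteins are secreted proteins that link cells to their surroundings through integrins and other surface receptors. Fibronectin, the product of Fn1, is assembled into fibrils by cells, and versican, the product of Vcan, is a large proteoglycan that binds hyaluronan. Galectins bind galactose-containing sugars on glycoproteins inside and outside the cell. In the marrow, monocytes and macrophages are known sources of several of these proteins, platelets store thrombospondin and SPARC, and osteoclasts and their precursors adhere to matrix through integrins.

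The sorted populations were first set against their sort markers. Csf1r, which encodes c-Fms, stood at an intensity of 164 in RANKhigh and 821 in c-Fmshigh cells, as labelled. The RANK gene Tnfrsf11a stood at 104 and 119, 1.15-fold lower in RANKhigh cells. That is a small difference at low intensity, and not in the direction of the label. RANKhigh here names the surface stain. Ptprc, the pan-leukocyte gene for CD45, stood at 2400.1 and 3029 (chosen outside the naming rule). As a guide to background, the 95th percentile of 1189 olfactory and vomeronasal receptor genes was 83.8 in RANKhigh and 81.8 in c-Fmshigh cells. All 9 measured members lay above it on both arrays. All 9 also passed the level filter, a higher value of at least 93.6, the median of all values.

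Promoter sequence of members that differed together, and of one that differed the other way, is shown first. For 7 of the 10 genes (Tgfbi, Vcan, Emilin2, Lgals3, Ecm1, Sparc and Spp1) RefSeq start sites of the GRCm38.p6 assembly were given with sequence; Emilin2 and Spp1 have 2 start sites each. The 250 bases before the start are printed 5′ to 3′ in the direction of transcription for Tgfbi and Vcan, lower in RANKhigh cells, and for Ecm1, higher there. Tgfbi lies at chr13:56609336-56609585 on the plus strand, Vcan at chr13:89742513-89742762 on the minus strand and Ecm1 at chr3:95739570-95739819 on the minus strand. Capitals mark motif matches on either strand. The AP-1 motif was searched as TGANTCA, where N is any base. For the GC box, which Sp family factors bind, the letters were GGGCGG. The TATA box, an element of core promoters, was taken as TATAAA.
Tgfbi: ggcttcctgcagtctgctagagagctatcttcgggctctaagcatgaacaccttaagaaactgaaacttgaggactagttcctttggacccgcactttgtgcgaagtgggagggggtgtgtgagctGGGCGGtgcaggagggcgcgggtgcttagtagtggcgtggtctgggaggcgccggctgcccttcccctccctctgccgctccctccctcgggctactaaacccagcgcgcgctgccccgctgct
Vcan: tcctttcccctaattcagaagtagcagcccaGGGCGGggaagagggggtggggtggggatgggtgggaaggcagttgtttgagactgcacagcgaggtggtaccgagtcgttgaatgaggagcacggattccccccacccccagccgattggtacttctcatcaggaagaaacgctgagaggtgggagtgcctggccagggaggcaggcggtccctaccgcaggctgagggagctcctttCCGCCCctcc
Ecm1: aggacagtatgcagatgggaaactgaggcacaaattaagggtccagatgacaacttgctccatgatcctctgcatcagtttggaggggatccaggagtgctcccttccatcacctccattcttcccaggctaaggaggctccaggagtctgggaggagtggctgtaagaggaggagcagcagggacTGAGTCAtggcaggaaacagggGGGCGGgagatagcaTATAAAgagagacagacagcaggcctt

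These windows differed in CpG count and in the motifs they hold, while Tgfbi and Vcan had the same GC content. Tgfbi has 1 GC box and Vcan has 2, and neither window holds the AP-1 motif or the TATA box. Ecm1 has 1 AP-1 motif, 1 GC box and 1 TATA box, beginning 64, 42 and 27 bases before the start. Over 32851 promoter windows of the same length, 6.75% held the AP-1 motif, 32.7% the GC box and 12.4% the TATA box. GAGGAAG, an ETS factor motif that was also searched on both strands and that 10.6% of windows held, was in none of the 3. The motifs do not overlap one another in these windows. Tgfbi has 15 CpG dinucleotides and a GC content of 62.4%, Vcan 10 and 62.4%, and Ecm1 1 and 54%, beside medians over all windows of 6 and 52.4%. Among the members not shown, Lgals3 has 1 GC box, 13 CpG dinucleotides and a GC content of 66%. Sparc has none of these motifs, 4 CpG dinucleotides and a GC content of 54%, the same as Ecm1. The Emilin2 windows have 6 and 15 CpG dinucleotides and GC contents of 48.4% and 57.6%. Lgals3, Sparc and Emilin2 were, like Tgfbi and Vcan, lower in RANKhigh cells. One of the Emilin2 windows has 1 GC box, and one of the Spp1 windows has 1 TATA box and 1 ETS motif. These matches describe the letters of the windows and were not tied to binding of any factor.

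The members divided into 3 with large differences, 3 with smaller ones in the same direction and 3 with small differences in either direction. Transcripts of 7 of the 9 measured members were lower in RANKhigh cells and 2 were higher. Of all 19935 genes, 9377 were lower and 10313 higher, and of the 11089 past the level filter 5661 were lower and 5383 higher. At 2-fold or more, 3 members (Fn1, Tgfbi and Vcan) were lower in RANKhigh cells, where 2.38% of all 19935 genes were, and 0 were higher, where 2.44% of all genes were. Among the 11089 genes that passed the level filter these shares were 4.26% and 4.34%. At 3-fold the same 3 members were lower and 0 higher (0.617% and 0.853% of all genes), and at 1.5-fold 6 were lower and 0 higher (7.05% and 6.16%). The median log2 difference, RANKhigh minus c-Fmshigh, was -0.88 over the 9 members and 0.01 over all genes. Because the members were chosen with this contrast in view, these counts and medians describe them and support nothing further.

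**Figure D1:**
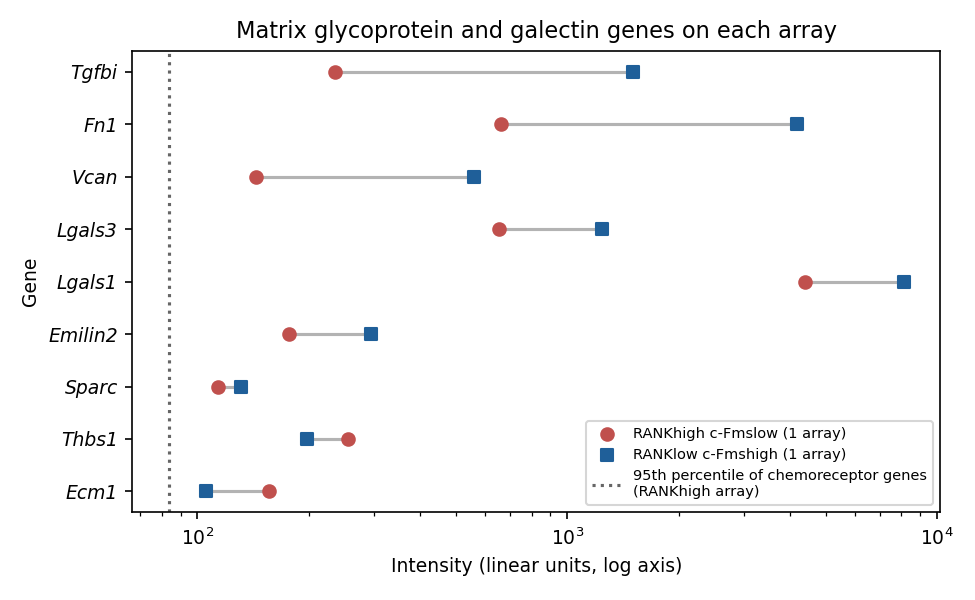
Intensity of each measured member on the RANKhigh c-Fmslow array (circles) and the RANKlow c-Fmshigh array (squares), on a log axis, 1 array each and therefore no error bars; the dotted line is the 95th percentile of the chemoreceptor genes in RANKhigh cells, 83.8. The lines joining the symbols are long for Tgfbi, Fn1 and Vcan and short for Sparc, and only Thbs1 and Ecm1 have the circle to the right; positions of different genes along the axis are not comparable amounts of RNA, because probe sets differ in brightness.

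Fn1 and Tgfbi, which encode adhesion proteins that integrins bind, differed by nearly the same ratio. Fn1 (Entrez gene 14268, probe set 10355403) had an intensity of 661 in RANKhigh cells and 4187 in c-Fmshigh cells, 6.34-fold lower in the former (log2 difference -2.66). Tgfbi (Entrez gene 21810, probe set 10405587), the TGF-beta-induced protein that binds collagens and integrins, had 236 and 1508, 6.40-fold lower (-2.68). Both lay above the chemoreceptor genes in RANKhigh cells, where they were low. Ordered by difference over all 19935 genes, Tgfbi was 8th and Fn1 10th from the c-Fmshigh end. Of the genes past the level filter, 0.189% were at least as far apart between the arrays as Tgfbi, in either direction, and 0.216% as far as Fn1.

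Vcan and Emilin2, both components of the extracellular matrix, were lower in RANKhigh cells to unequal extents. Vcan (Entrez gene 13003, probe set 10410931) had an intensity of 144 in RANKhigh and 561 in c-Fmshigh cells, 3.89-fold lower (log2 difference -1.96), the 57th from the c-Fmshigh end of all genes. Emilin2 (Entrez gene 246707, probe set 10452648), an elastin-associated glycoprotein, had 177 and 295, 1.67-fold lower (-0.74). Of the filtered genes, 1.32% were as far apart as Vcan and 15.7% as far as Emilin2, so that a difference like that of Emilin2 was common on these arrays. Vcan was the member nearest to 2-fold among those beyond it.

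**Figure D2:**
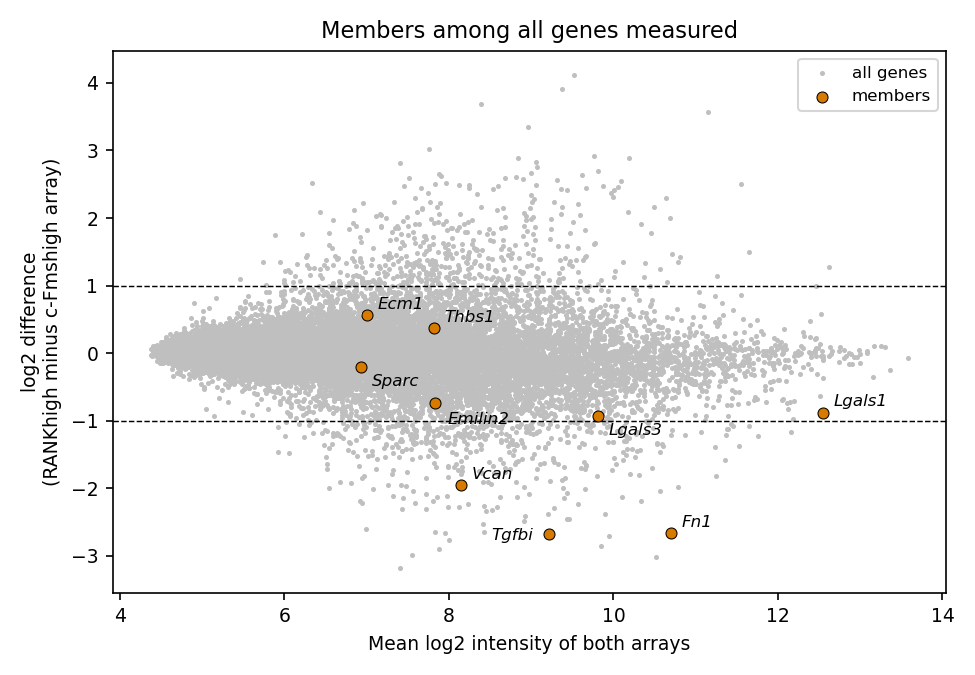
Log2 difference (RANKhigh minus c-Fmshigh) of all 19935 genes against their mean log2 intensity, with the 9 members in orange and dashed lines at 2-fold, 1 array per population. Tgfbi and Fn1 lie near -2.7 at the lower edge of the cloud, Vcan at -1.96, Lgals3 and Lgals1 just inside the lower line, and Ecm1, Thbs1 and Sparc within the body of the cloud.

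The pair of galectins lay just inside 2-fold. Lgals3 (Entrez gene 16854, probe set 10414360), whose product galectin-3 is a chimera-type galectin abundant in macrophages, had an intensity of 652 in RANKhigh cells and 1243 in c-Fmshigh cells, 1.91-fold lower (log2 difference -0.93). Lgals1 (Entrez gene 16852, probe set 10425161), encoding the dimeric galectin-1, had 4399 and 8106, 1.84-fold lower (-0.88). Both were therefore lower in RANKhigh cells by nearly the same ratio, although neither counts at 2-fold. Of the filtered genes, 9.94% were as far apart as Lgals3 and 11.2% as far as Lgals1. The other 7 galectin genes measured, a list that includes the galectin-3-binding protein gene Lgals3bp, had differences from -0.15 to 0.46, with a median of -0.06. None of them reached 2-fold in either direction. Lgals9, which encodes a tandem-repeat galectin, stood at 950 and 693, higher in RANKhigh cells by 0.46 on the log2 scale. Lgals8, also a tandem-repeat galectin, stood at 943 and 981 (-0.06), a sign that turned under quantile normalization, and Lgals3bp at 139 and 153 (-0.14). Lgals2, Lgals7 and Lgals12 were not above the chemoreceptor genes on either array. Whether Lgals1 and Lgals3 differ in this from the other galectins cannot be tested with 1 array per population.

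The small differences were those of Ecm1, Thbs1 and Sparc. They are grouped here as matricellular, that is, proteins of the matrix that modulate cell behaviour more than they build structure. That class is not confined to these genes, and its link to small differences was not tested. Ecm1 (Entrez gene 13601, probe set 10500204), a secreted glycoprotein, had an intensity of 156 in RANKhigh cells and 105 in c-Fmshigh cells, 1.48-fold higher on the former (log2 difference 0.56). Thbs1 (Entrez gene 21825, probe set 10474700), which encodes thrombospondin-1, an activator of latent TGF-beta, had 256 and 198, 1.29-fold higher (0.37). Sparc (Entrez gene 20692, probe set 10386058), encoding the collagen-binding protein osteonectin, had 113 and 131 (-0.21). Of the filtered genes, 23.9% were as far apart as Ecm1, 39.6% as far as Thbs1 and 59.6% as far as Sparc. Among 558 other genes past the level filter that have 2 probe sets, the gap between the 2 differences had a median of 0.19 and a 90th percentile of 0.67. The differences of Ecm1, Thbs1 and Sparc lie inside that 90th percentile. It covers disagreement between probe sets of a gene only, and not variation between replicate samples.

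Related genes of the matrix were then compared, from lists set by the function of their genes. None of 29 other basement membrane and fibrillar glycoprotein genes, 20 other matricellular genes, 4 relatives of osteopontin (the SIBLING family), 11 other proteoglycan genes or 13 collagen genes reached 2-fold in either direction. Many were at the level of the chemoreceptor genes, that is not above their 95th percentile, on both arrays: 18 of the 29, 16 of the 20, 3 of the 4, 7 of the 11 and 2 of the 13. Their median log2 differences over all measured genes were 0.01, 0.06, 0.04, 0.09 and 0.02. Over the genes past the level filter the medians were -0.03 (7 genes), -0.10 (2 genes), 0.11 for proteoglycans (3 genes) and 0.02 for collagens (9 genes), and no SIBLING gene passed. The largest difference among those past the filter was that of Srgn, which encodes serglycin, the proteoglycan of leukocyte granules, at 3123 in RANKhigh and 2119 in c-Fmshigh cells (1.47-fold higher). Emilin1, the relative of Emilin2, stood at 122 and 137 (-0.17), and Mfge8, whose product bridges apoptotic cells to phagocytes, at 163 and 191 (-0.23). Vwf, encoding von Willebrand factor, stood at 115 and 106 (0.13). Among collagens, Col14a1 stood at 96.0 and 81.3, the latter not above the chemoreceptor genes, so it was at least 1.17-fold higher in RANKhigh cells. Col6a1 stood at 125 and 113 (0.15) and Col18a1 at 109 and 119 (-0.13). Over all 77 of these structural and matricellular genes, differences ran from -0.23 to 0.56. Those not above the chemoreceptor genes on either array could show no difference. Their range is therefore no measure to set against the -2.66, -2.68 and -1.96 of Fn1, Tgfbi and Vcan.

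**Figure D3:**
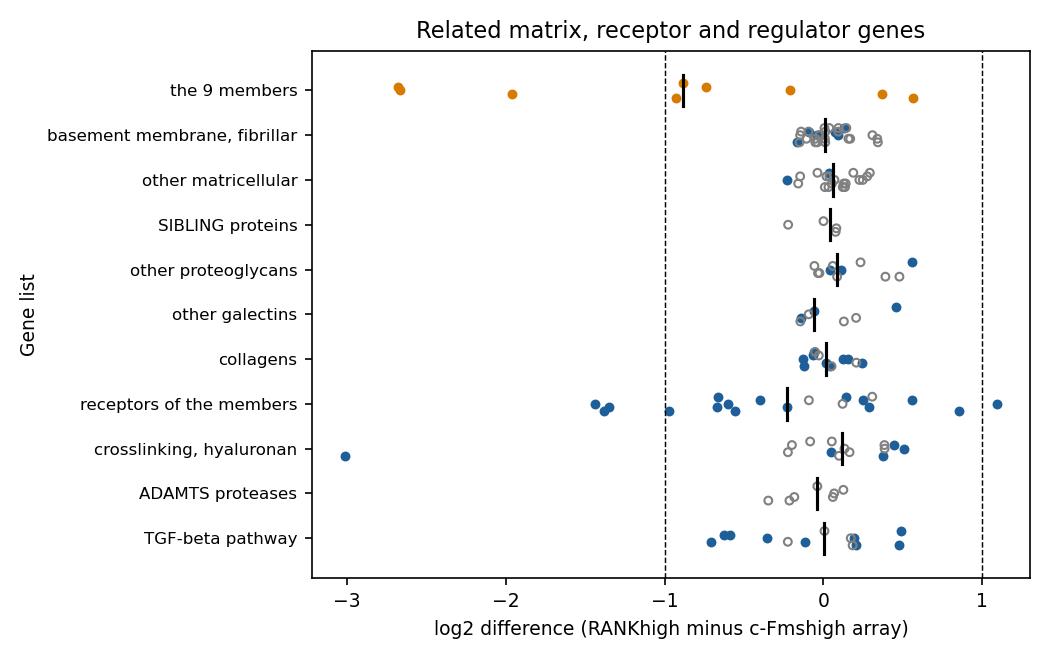
Log2 difference (RANKhigh minus c-Fmshigh) of the 9 members and of each gene in 10 lists of related genes; filled points passed the level filter, open points did not, black bars are medians and dashed lines mark 2-fold, with 1 array per population. The matrix gene lists, many of whose genes did not pass the filter, cluster around 0. The receptors of the members spread from -1.44 to 1.09 and F13a1 stands alone at -3.01.

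Genes whose products bind the members at the cell surface differed in both directions. Of 19 such receptor genes, 3 were at least 2-fold lower in RANKhigh cells and 1 was at least 2-fold higher. The other 15 were less than 2-fold apart by measured values. The median was -0.23 over all 19 and -0.48 over the 16 past the level filter. Cd44, the receptor for hyaluronan and osteopontin, stood at 335 in RANKhigh and 872 in c-Fmshigh cells, 2.61-fold lower. Lrp1, the endocytic receptor that takes up thrombospondin-1, stood at 120 and 305, 2.55-fold lower. Itga8, an integrin chain that binds fibronectin, stood at 66.6 and 180.1; its lower value was not above the chemoreceptor genes, so it was at least 2.15-fold lower. Cd36, a thrombospondin receptor, was the one in the other direction, at 570 and 267, 2.13-fold higher in RANKhigh cells.

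The integrin chains that form the best known fibronectin receptors are given beside these, chosen after their values were seen. Itgb1, the common beta chain, stood at 713 in RANKhigh and 1396 in c-Fmshigh cells (log2 difference -0.97), just inside 2-fold. Itga4 stood at 1777 and 2616 (-0.56), and Itgav at 264 and 419 (-0.67). Itga5, the alpha chain of the classical fibronectin receptor, stood at 110 and 129 (-0.23). Itga9, which also pairs with the beta chain Itgb1, stood at 95.6 and 65.0, the latter not above the chemoreceptor genes, so that it was at least 1.17-fold higher in RANKhigh cells. By measured values, each of these 5 chains was less than 2-fold apart. Only Itga9 was higher in RANKhigh cells, and no upper limit can be given for its fold. Itgb3 (131 and 209) and Itgb5 (72.1 and 110, at least 1.31-fold), also chosen after their values were seen, were lower there. Itgb6 and Itgb8 were at the level of the chemoreceptor genes on both arrays. Of the other receptors chosen in that way, Cd47, a thrombospondin-1 receptor, stood at 3985 and 3264 (0.29), and Sdc4, a heparan sulfate proteoglycan that binds fibronectin, at 369 and 204 (0.85), both higher in RANKhigh cells.

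Among 14 genes for matrix crosslinking and for hyaluronan synthesis and binding, 1 was at least 2-fold lower in RANKhigh cells and 0 were higher. It was F13a1, the factor XIII subunit that crosslinks fibrin and fibronectin, at 517 and 4177, 8.08-fold lower. Tgm2, the tissue transglutaminase, stood at 116 and 81.5, the latter not above the chemoreceptor genes, and Cemip2, a hyaluronidase, at 197 and 145 (0.44). All 7 ADAMTS protease genes, which include those that cleave versican, were at the level of the chemoreceptor genes on both arrays. Of 13 genes for TGF-beta ligands, receptors and SMADs, 0 reached 2-fold. Their median was 0.01 over all 13 and -0.12 over the 9 past the level filter. Smad2 stood at 753 and 1232 (-0.71), Smad4 at 314 and 485 (-0.63), Tgfbr1 at 222 and 333 (-0.59) and Tgfbr2 at 228 and 163 (0.49). Beside the -2.68 of Tgfbi, the gene of the ligand it is named for, Tgfb1, chosen after its value was seen, stood at 229 and 199 (0.21).

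Markers of cell types that the sort could hold were then compared, and their direction differed between lists. All 8 measured monocyte markers were lower in RANKhigh cells, 5 of them at least 2-fold, and their summed intensity was 3355 there and 13334 in c-Fmshigh cells. The list shares F13a1 (517 and 4177) with the crosslinking genes. Sums over a list, here and below, are led by its brightest probe sets and do not measure the amount of a cell type. Csf1r, Ccr2 (607 and 2771) and Ms4a6c (889 and 3501) were among the 5. Irf8 (317 and 612), Klf4 (118 and 139) and Cd14 (467 and 494), chosen after their values were seen, were less than 2-fold apart. The log2 difference of Cd14 was only -0.08. Csf1r encodes c-Fms, on which the cells were sorted, so its direction is not independent of the sort. Macrophage markers went both ways, 3 of 11 being lower in RANKhigh cells by 2-fold or more and 2 higher, with sums of 3025 and 4992. Msr1 (209 and 1119) and Adgre1 (228 and 739) were lower and C1qc (457 and 152) was higher. Fn1, Tgfbi, Vcan, Emilin2 and the galectins were lower on the array on which monocyte markers were lower; the part of cell composition in this was not tested. In sorted populations measured in bulk, fewer cells of a type and less RNA per cell cannot be told apart.

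Markers of other blood lineages were mostly higher in RANKhigh cells, as Thbs1 and Ecm1 were. All 7 megakaryocyte and platelet markers were higher there, 1 of them, Pf4 (959 and 283), at least 2-fold, with sums of 2447 and 1281. At least 2-fold higher were also 8 of 13 neutrophil markers (sums of 48007 and 19743), 5 of 7 eosinophil markers by measured values (12331 and 1283), all 9 B lineage markers (13191 and 3538), 7 of 9 T and NK cell markers (4041 and 1275) and all 9 erythroid markers (13924 and 3281). Il5ra, chosen after its values were seen, is one of these 5 eosinophil markers, but its lower value was not above the chemoreceptor genes and only an excess of at least 1.21-fold can be stated, which leaves 4. In the neutrophil list Mpo (3026 and 4434) and Prtn3 (466 and 643), also chosen in that way, were lower in RANKhigh cells. Sparc (113 and 131), whose product platelets store as they do thrombospondin, was not higher there. The part of these cell types in the values of Thbs1 and Ecm1 was not tested. Of 9 stromal and osteoblast markers, cells that make much matrix in bone, 0 reached 2-fold, with sums of 668 and 711, and 6 (Lepr, Pdgfra, Pdgfrb, Sp7, Alpl and Ibsp) were at the level of the chemoreceptor genes on both arrays. Of 8 endothelial markers, 0 reached 2-fold, with sums of 1084 and 864, and 5 (Cdh5, Kdr, Tek, Emcn and Esam) were at that level.

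**Figure D4:**
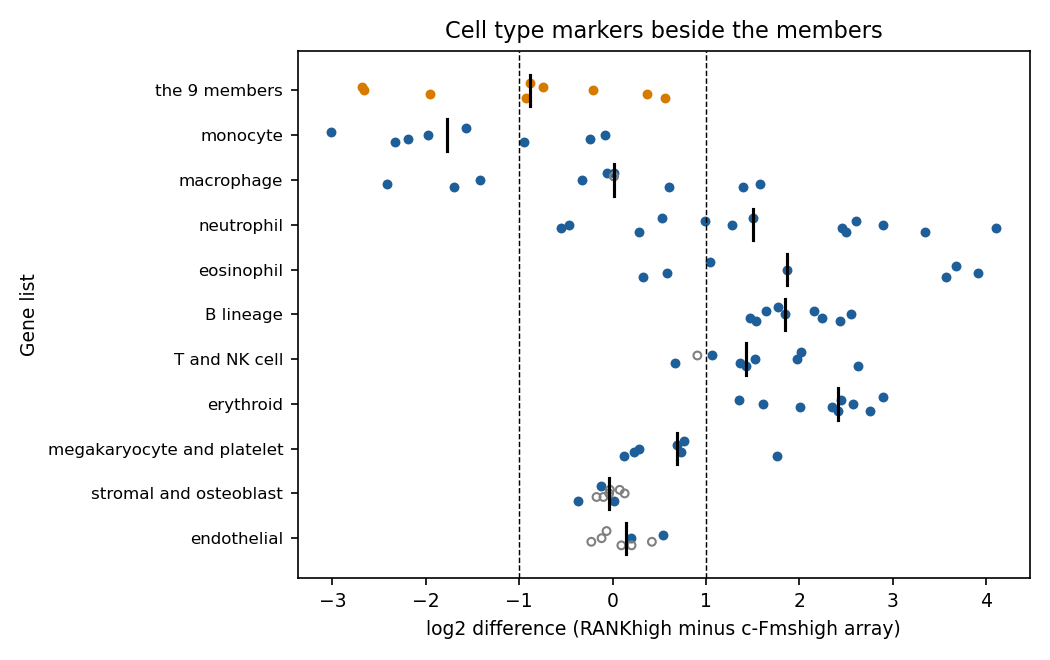
Log2 difference (RANKhigh minus c-Fmshigh) of the 9 members and of cell type marker genes in 10 lists; filled points passed the level filter, open points did not, black bars are medians and dashed lines mark 2-fold, with 1 array per population. Monocyte markers (median -1.77) lie on the same side as Fn1, Tgfbi and Vcan, erythroid markers (2.42) on the other, and stromal and endothelial markers near 0.

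The differences of the members were set beside those of the genes next to them on the chromosome, taken as the nearest measured protein-coding gene on each side in the gene order of GRCm38.p6. Of 18 neighbours, 0 were at least 2-fold lower and 1 was at least 2-fold higher in RANKhigh cells, with a median of 0.04. Atic, a purine synthesis gene beside Fn1, was just inside 2-fold at 715 in RANKhigh and 1417 in c-Fmshigh cells (-0.99). Mreg, on the other side of Fn1, stood at 90.1 and 63.7, the latter not above the chemoreceptor genes. Beside Tgfbi, Smad5 stood at 319 and 257 (0.31), and Lect2 was at the level of the chemoreceptor genes on both arrays. Beside Vcan, Xrcc4, a DNA end-joining gene, stood at 350.2 and 465 (-0.41), and Hapln1, whose product links versican-type proteoglycans to hyaluronan, was at the level of the chemoreceptor genes on both arrays. The neighbour that was higher was Rasgrp1, a Ras activator of lymphocytes, beside Thbs1, at 722 and 227 (3.18-fold). Of the neighbours of Tgfbi and Vcan, Lect2 and Hapln1 could show no difference at that level, and Smad5 and Xrcc4 were less than 2-fold apart. Whether members and their neighbours differ together was not tested.

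Genes most like a member were sought by the distance between their 2 log2 intensities and those of the member, which is a description over 2 arrays and depends on probe set brightness. For Tgfbi, the member with the largest difference, the nearest were Trps1 (259 in RANKhigh and 1348 in c-Fmshigh cells, distance 0.21), Rassf4 (280 and 1370, distance 0.28) and Idh1 (297 and 1625, distance 0.35). All 3 differed somewhat less than Tgfbi, by -2.38, -2.29 and -2.45. For Ecm1, the member highest in RANKhigh cells relative to the other, the nearest were Midn, Ctrl and 6030468B19Rik, with distances of 0.0044, 0.018 and 0.024.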

How the data were processed

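Per the labels' protocols, total RNA of the sorted cells was amplified into cDNA and biotin-labelled cDNA was hybridised to single-channel arrays. Each deposited value is an intensity on the linear scale. GCOS 1.4 and RMA were used, per the submitters' processing notes; what each did, and why RMA output is linear here, is not given in the sources used here. Normalization was that of the authors, so differences depend on it. The 2016 platform annotation gave 1 gene for 21780 of 28815 probe sets, several for 1605, which were left out, and did not list 5430. Intensities were put on the log2 scale with no pseudocount and averaged over the probe sets of a gene (Python 3.11.15, pandas 2.3.3). Arrays have no read depth; their number, 1 per group, limits precision. Where a lower value was not above the chemoreceptor percentile, that percentile took its place and the fold is written as at least.

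All members and the sort markers were named, with up to 4 genes per list of those past the level filter with the largest absolute differences, and the 3 genes most like the members at either end. Genes outside this rule are marked, except neighbours and genes named as at background. Members, lists and alternatives were chosen with earlier results of these data known. Alternatives were scaling to equal medians or 75th percentiles, quantile normalization, the brightest probe set only, a pseudocount of 50, the level filter, and 1.5-fold and 3-fold thresholds.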

Additional observations from a re-analysis of the deposited data

How the results depend on the processing

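The count of members at least 2-fold lower in RANKhigh cells, 3, was also 3 under each of the scaling and pseudocount alternatives and at 3-fold, and moved to 6 at 1.5-fold. The count higher was 0 under each of these. The probe set and level filter alternatives could change nothing, because every measured member has 1 probe set and passed the filter, and they say nothing about stability. The median difference of the members moved by less than 0.19, the median gap between probe sets of a gene, under each scaling and with the pseudocount. Of 36 differences of single members recomputed under these, 0 changed sign and 2 moved by more than that gap, both with the pseudocount of 50: Tgfbi to -2.45 and Vcan to -1.65. The pseudocount shrinks differences of dim probe sets by construction. Leaving out a replicate was not possible with 1 array per population. No paired analysis was possible because each population has 1 array. The signal over background limits Sparc and Ecm1 most, whose lower values (113 and 105) lay closest to the chemoreceptor percentiles.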
